A study of Mus musculus with 6 samples.

Results

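The transcription factors that set up and maintain the trophoblast, the lineage that forms the placenta, were examined in total RNA of mouse embryonic stem cells (mESC) with a reduced dose of Srrm2. They were Cdx2, Eomes, Elf5, Tfap2c, Gata2, Gata3 and Hand1, which are 7 of the 42450 genes in the deposited count table, and their rows were taken by gene name. Both groups were grown in serum-free medium with LIF before collection, for a single culture time per the study's methods, whereas the labels list several times without assigning them to libraries. WT cells were the male E14tg2a.4 line (3 libraries). Srrm2+/- cells were CG0630 (3 libraries), a single gene-trap line made from E14tg2a.4, with a cassette in exon 1 of 1 Srrm2 allele. SRRM2 is a large splicing protein that helps to build nuclear speckles. Per the study's methods, replicates were separately frozen stocks of each line from different passages, and the passages of both lines differed, so passage and genotype cannot be told apart. P-values measure the spread between these stocks of a single line per genotype.

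In the embryo, CDX2 and TFAP2C act when the outer cells of the morula become trophectoderm, together with GATA3. EOMES and ELF5 join CDX2 in the circuit that keeps trophoblast stem cells self-renewing, whereas GATA2, GATA3 and HAND1 are known for the differentiation of placental cell types such as giant cells. Embryonic stem cells keep most of this circuit silent, in part through POU5F1 (which represses Cdx2) and through DNA methylation (for which the Elf5 promoter is a classic case). TFAP2C is an exception, since it is also a regulator in embryonic stem and germ cells. Several members have roles outside the trophoblast as well, such as EOMES in the primitive streak, GATA2 in blood precursors and HAND1 in mesoderm.

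Promoter windows of the stem cell circuit, Cdx2, Eomes and Elf5, are shown because these genes form 1 circuit and the windows shown differ in CpG content. Each run is the 250 bases before the annotated start (RefSeq, GRCm38.p6), read 5' to 3' on the gene's strand, with CpG dinucleotides in capitals.
Cdx2, chr5:147307250-147307499, minus strand: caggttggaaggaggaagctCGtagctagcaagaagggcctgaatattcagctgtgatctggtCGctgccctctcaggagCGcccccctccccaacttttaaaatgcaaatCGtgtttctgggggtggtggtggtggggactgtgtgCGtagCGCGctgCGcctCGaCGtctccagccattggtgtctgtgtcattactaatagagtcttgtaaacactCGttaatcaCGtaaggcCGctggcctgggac
Eomes, chr9:118477939-118478188, plus strand: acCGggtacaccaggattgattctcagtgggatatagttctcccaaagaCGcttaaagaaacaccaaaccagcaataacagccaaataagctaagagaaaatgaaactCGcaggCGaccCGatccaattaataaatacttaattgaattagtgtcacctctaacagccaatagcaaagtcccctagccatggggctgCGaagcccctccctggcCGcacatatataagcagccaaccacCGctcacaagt
Elf5, chr2:103411848-103412097, plus strand: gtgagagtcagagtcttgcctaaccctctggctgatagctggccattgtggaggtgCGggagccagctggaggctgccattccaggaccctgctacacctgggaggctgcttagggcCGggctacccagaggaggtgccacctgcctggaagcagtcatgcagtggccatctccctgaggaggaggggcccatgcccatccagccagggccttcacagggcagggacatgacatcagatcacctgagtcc
The Cdx2 window held 13 CpG, and 68.5% of the 32851 RefSeq windows of this length held fewer. The Eomes window held 8 CpG (57.0% held fewer) and the Elf5 window shown 2 (18.8% held fewer), against a median of 6. The RefSeq table held entries for 5 of the 7 factors and 7 windows in all, with a second Elf5 window and a pair for Gata2. The second Elf5 window, which is not shown, held 8 CpG, as many as that of Eomes, so Elf5 is poor in CpG at the first of its RefSeq starts only. Which Elf5 start is used in these cells, or is methylated, was not tested. The window shown lies inside the GENCODE span of Elf5, which begins at chr2:103411688, and bases before that start were not measured. For 6 of the 7 windows, the first 25 bases after the start occurred in a GENCODE transcript of the gene. The Gata2 windows held 22 and 24 CpG and the Gata3 window 19. The AP-2 motif GCCNNNGGC, which reads the same on both strands, occurred in 13.7% of all windows and in 3 of the 7, namely those of Cdx2 and Gata3 and the second of Gata2. The GATA motif AGATAA, searched on both strands, occurred in 9.99% of all windows and in 0 of the 7. These matches describe the letters of each window only.

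Library totals lay between 54151532 and 58499961 estimated counts in WT and between 61023103 and 69933465 in Srrm2+/-. Srrm2 itself was measured in CPM, that is counts scaled to a common library size after TMM normalisation. WT libraries held 91.2, 98.3 and 97.7 CPM, and Srrm2+/- libraries held 62.3, 56.2 and 59.6 CPM. It was lower by -0.69 ± 0.05 (log2 fold change ± SE, adjusted p = 2.38e-05, edgeR quasi-likelihood test with Benjamini-Hochberg adjustment). The labelled cell type was checked with Pou5f1, Nanog, Sox2, Esrrb, Zfp42 and Tdgf1. Their summed level was 4041 to 4162 CPM in WT and 3478 to 3553 CPM in Srrm2+/-. Of these 6 markers, 4 were called lower at an adjusted p under 0.05 (Nanog, Sox2, Esrrb and Zfp42), as were 11.7% of all tested genes. The median log2 fold change of the list was -0.30. Nanog fell most, by -0.72 ± 0.04 (adjusted p = 8.60e-06, edgeR), to 60.6% of its WT level. Pou5f1 and Tdgf1 were not called. Of 11 differentiated placental genes, all but Synb were near the detection limit in both groups. Synb held 31, 34 and 65 counts in the WT libraries and 52, 41 and 27 in the Srrm2+/- libraries. Of the 11 listed, 5 had no count in any library (Prl3d1, Prl3b1, Prl2c2, Prl8a9 and Tpbpa), 1 (Synb) reached the test without being called, and the summed counts were 37 to 68 in WT and 44 to 66 in Srrm2+/-.

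Tfap2c was the sole abundant member and fell in Srrm2+/- cells to 61.0% of its WT level. Eomes was low in both groups and rose 1.73-fold. Cdx2 had no count in WT and a few in every Srrm2+/- library. Elf5, Gata2 and Gata3 were low and did not pass the test, and Hand1 was too low to test. Thus, of the 5 members that passed the filter on low counts, 1 was higher, 1 was lower and 3 were not called at an adjusted p under 0.05. Over all 18905 genes tested, 25.3% were called, 13.6% as higher and 11.7% as lower. The groups did not overlap for 3 of the 7 members (Tfap2c, Eomes and Cdx2), including 2 of the 5 tested, against 41.4% of all tested genes and 24.4% of those with a mean under 1 CPM. None of the 5 tested members had an absolute log2 difference of 1 or more together with its call, as 6.1% of tested genes had. A single call in each direction among 5 tested members is close to what these shares give.

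**Figure D1:**
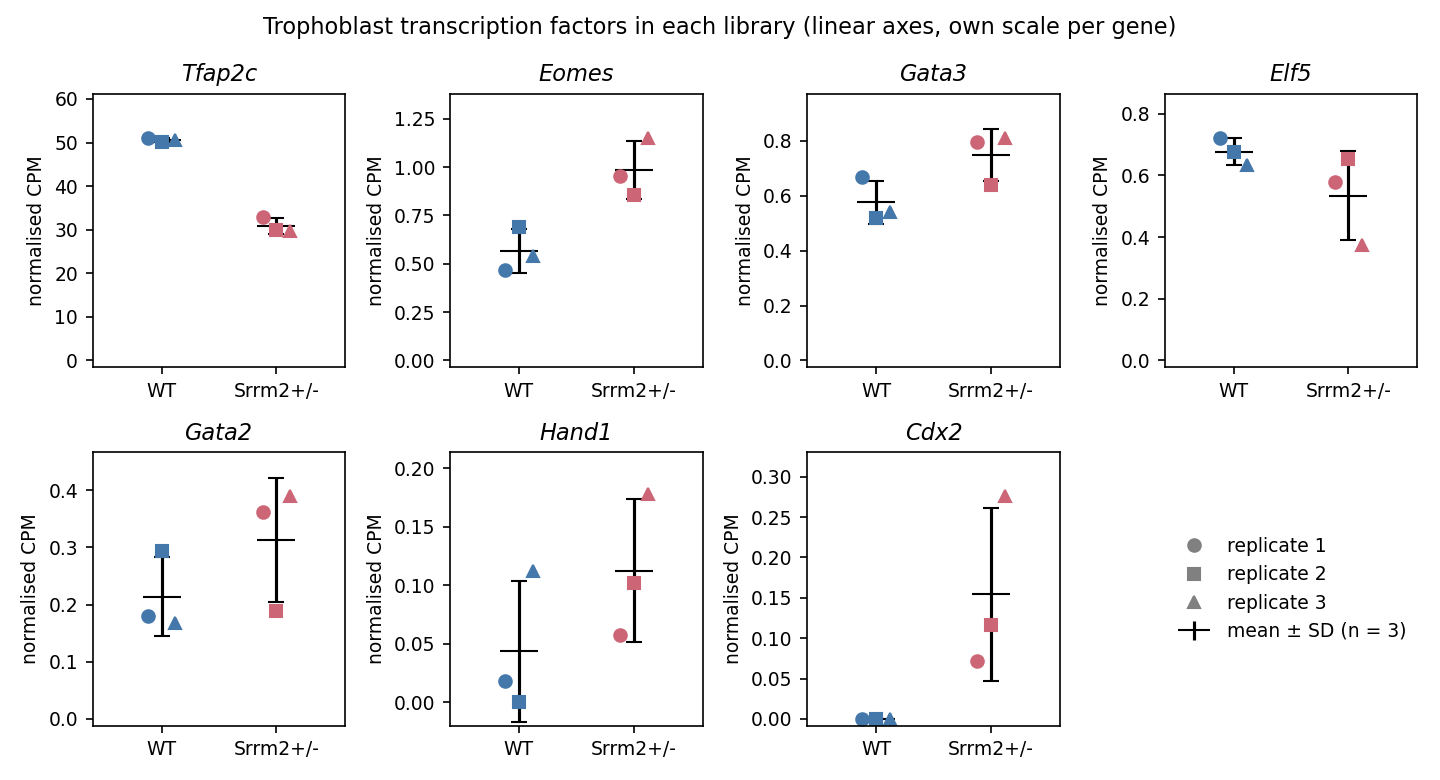
Normalised CPM of each trophoblast factor (linear y axis with its own scale per gene) in 3 WT and 3 Srrm2+/- libraries. Points are libraries, with a symbol per replicate, and bars are mean ± SD. Tfap2c lies near 50.6 CPM in WT and 30.8 CPM in Srrm2+/-, whereas the other factors lie near or below 1 CPM. The groups are separate for Tfap2c, Eomes and Cdx2 only.

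Tfap2c (ENSMUSG00000028640, chr2:172549593-172558622, plus strand, GRCm38) encodes AP-2 gamma, which opens enhancers in the trophectoderm and is also used by naive embryonic stem cells and germ cell precursors. Its estimated counts were 2832, 2899 and 2709 in WT and 2275, 2067 and 1829 in Srrm2+/-. In normalised terms these were 51.0, 50.1 and 50.6 CPM in WT and 32.9, 30.0 and 29.6 CPM in Srrm2+/-. Every Srrm2+/- library lay below every WT library, and the WT values lay within 1 CPM of each other. The log2 fold change was -0.71 ± 0.05 (SE; 95% interval -0.83 to -0.60; adjusted p = 2.11e-05, edgeR). In bulk RNA, fewer cells of a type and less RNA per cell cannot be told apart, here and in the results that follow. No 31-base word of the annotated Tfap2c transcripts occurred in another gene.

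Tfap2c also made up nearly the whole signal of its family. On the scale of CPM per kilobase of exon, it held 98.8% ± 0.220 (SD, n = 3) of the summed level of the 5 AP-2 genes in WT and 98.1% ± 0.432 in Srrm2+/-. Its closest tested paralog Tfap2a, a neural crest and epidermal factor, was measured at 0.414 ± 0.0950 CPM in WT cells and 0.397 ± 0.0555 CPM in Srrm2+/- (log2 fold change -0.06 ± 0.30, adjusted p = 0.908). Tfap2b, Tfap2d and Tfap2e were under the filter, with at most 11 counts in any library.

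Markers of primordial germ cells, which use TFAP2C together with PRDM1 and PRDM14, were measured beside Tfap2c. Of the 7, 3 were called lower, and 11.7% of all tested genes were. Their summed level was 104 to 112 CPM in WT and 70.6 to 73.9 CPM in Srrm2+/-. All 7 were tested, and Prdm14 was lower by -1.02 ± 0.08, Prdm1 by -0.91 ± 0.06 and Kit by -0.79 ± 0.06 (log2 fold change ± SE, adjusted p = 2.60e-05, 1.86e-05 and 2.17e-05). Nanos3, Dnd1, Ddx4 and Dazl were not called. The groups overlapped for Dnd1 (-0.04 ± 0.10) and Ddx4 (0.05 ± 0.07). They did not overlap for Nanos3 (-0.92 ± 0.38, adjusted p = 0.117, edgeR) and Dazl (-0.44 ± 0.14, adjusted p = 0.0503, edgeR), which had lower values in Srrm2+/-. For Nanos3 the lowest WT library (0.504 CPM) and the highest Srrm2+/- library (0.502 CPM) were nearly equal, and WT replicate 2 stood highest at 1.16 CPM. Groups did not overlap for 41.4% of all tested genes, and for 24.4% of those with a mean under 1 CPM. The median log2 fold change of the list was -0.79, against -0.00254 over all genes tested. Embryonic stem cells express several of these genes too, and the part of such cells in the Tfap2c result was not tested.

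Eomes (ENSMUSG00000032446, chr9:118478212-118486132, plus strand), whose promoter is printed above, encodes a T-box factor of the trophoblast stem cell circuit and of the primitive streak. Its estimated counts were 26, 40 and 29 in WT and 66, 59 and 71 in Srrm2+/-. These corresponded to 0.469, 0.692 and 0.541 CPM in WT and 0.954, 0.856 and 1.15 CPM in Srrm2+/-. The groups did not overlap, although the highest WT and the lowest Srrm2+/- library lay close together. Mean levels were 0.567 ± 0.114 CPM and 0.987 ± 0.150 CPM (SD, n = 3), and the log2 fold change was 0.79 ± 0.24 (SE; 95% interval 0.25 to 1.33; adjusted p = 0.0387, edgeR). Among the 5278 tested genes with a mean under 1 CPM, where Eomes belongs, 9.91% were called and 6.95% were called higher.

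The Eomes call was close to the threshold. It was lost with DESeq2 (adjusted p = 0.0880), without the filter (0.0506) and with the replicate number as a block (0.0809), and also without WT replicate 1 (0.109), WT replicate 3 (0.0987), Srrm2+/- replicate 1 (0.0856), 2 (0.0532) or 3 (0.139). It was retained with RLE or upper quartile normalisation, with limma voom and without WT replicate 2 (adjusted p between 0.0368 and 0.0447). The log2 fold change stayed between 0.67 and 0.96 throughout. The antisense gene Gm33460 overlaps the 3' part of Eomes, was not used here, and shares more 31-base words with Eomes than any other gene does. In all, 2.59% of Eomes words occur in another gene.

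**Figure D2:**
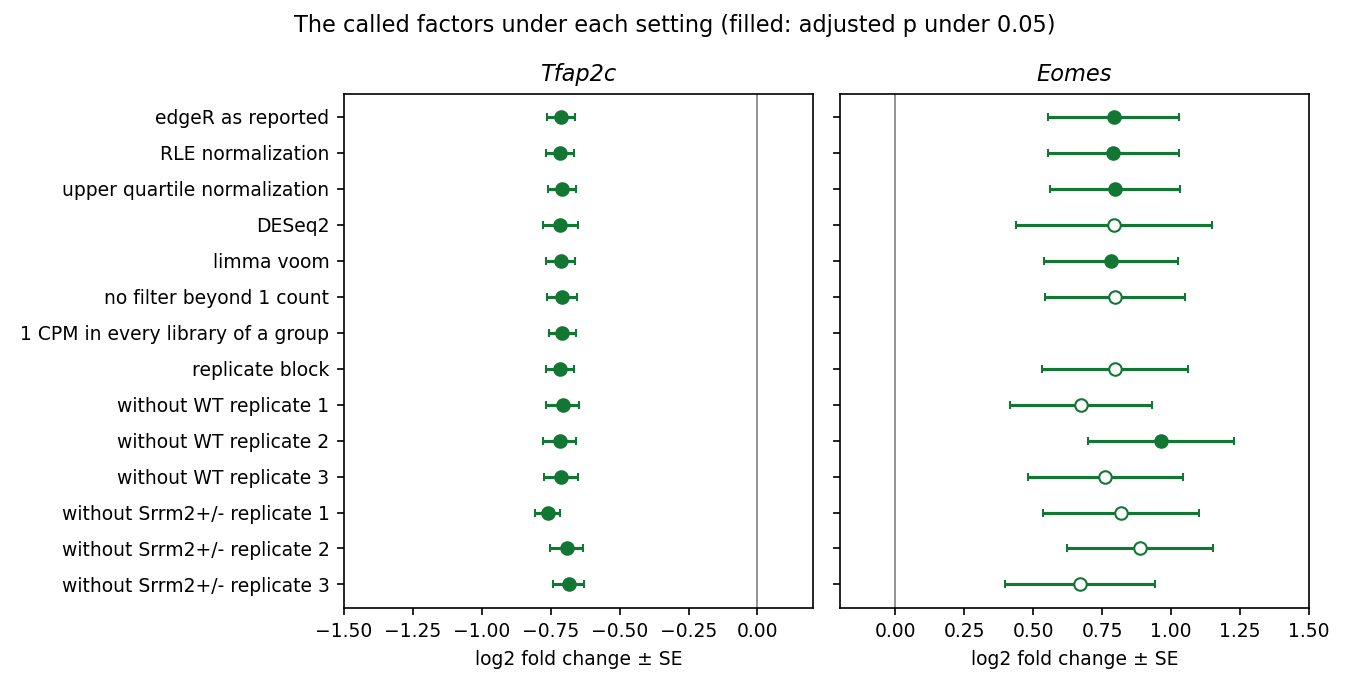
Log2 fold change ± SE (x axis, Srrm2+/- against WT) of the called factors Tfap2c and Eomes under each setting of the analysis (y axis). Filled points have an adjusted p under 0.05. Tfap2c is filled throughout, from -0.76 to -0.69. Eomes stays between 0.67 and 0.96 but is open in 8 of 12 alternatives, and it does not pass the filter of 1 CPM in every library of a group.

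Of the 8 primitive streak markers measured beside Eomes, 5 were tested and 2 of these were called higher. Over all tested genes 13.6% were called higher, and 6.95% of those with a mean under 1 CPM. The 8 markers summed to 1.46 to 2.63 CPM in WT and 4.62 to 5.63 CPM in Srrm2+/-. The 5 tested markers had a median log2 fold change of 1.15, and T and Wnt3 were the ones called higher. T (brachyury), the T-box paralog of Eomes that marks the streak and nascent mesoderm, stood at 0.937, 1.12 and 0.597 CPM in the WT libraries and at 2.83, 3.87 and 3.16 CPM in the Srrm2+/- libraries. Its groups were widely separate and its log2 fold change was 1.89 ± 0.24 (adjusted p = 5.13e-04). Wnt3, the signal that induces the streak, had a log2 fold change of 2.03 ± 0.37 (adjusted p = 0.00383) and was named after its values were seen, since its mean was under 1 CPM. Mixl1, Gsc and Fgf8 were tested and not called, and Gsc had the lower mean in Srrm2+/- (0.417 ± 0.167 CPM in WT cells, 0.207 ± 0.0811 CPM in Srrm2+/-, adjusted p = 0.141). Mesp1, Evx1 and Lhx1 had at most 5 counts in any library and lower means in Srrm2+/- than in WT. The list thus did not move as a whole, and T made up the larger part of its summed level in Srrm2+/-. The part of streak-like cells in the Eomes result was not tested.

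In CPM per kilobase, Eomes made up 20.4% to 26.3% of the summed level of 4 T-box genes (Eomes, T, Tbr1 and Tbx21) in the WT libraries and 10.7% to 16.1% in the Srrm2+/- libraries. Its share was thus lower where its level was higher. T itself was at 0.383 and 1.42 CPM per kilobase in the respective groups. Tbr1 and Tbx21, the closest relatives of Eomes, were under the filter.

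Cdx2 (ENSMUSG00000029646, chr5:147300805-147307270, minus strand), whose promoter is printed above, encodes the caudal-type homeobox factor that specifies trophectoderm. It had 0 counts in all 3 WT libraries and 5, 8 and 17 counts in the Srrm2+/- libraries. These correspond to 0.0723, 0.116 and 0.276 CPM in Srrm2+/-. A floor of 3 counts per library, which a count of 0 still allows, equals 0.0519 to 0.0560 CPM in WT. The Srrm2+/- mean of 0.155 ± 0.107 CPM (SD, n = 3) was 2.86-fold the mean of this floor. All Srrm2+/- libraries lay above this floor, but most counts came from replicate 3, and without that library the ratio was 1.74. This floor covers counting error in WT only. The ratio allows for no error in the Srrm2+/- mean, so it is not a lower bound of the fold change.

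Cdx2 did not pass the filter on low counts and therefore has no main test. When every gene with at least 1 count was tested (30079 genes, of which 15.2% were called and 8.54% were called higher), Cdx2 was called as higher with an adjusted p of 0.0112 (edgeR). The fitted fold change of that test depends on the prior count and is not given. Only 0.269% of the 31-base words of Cdx2 occurred in another gene. Its paralog Cdx1 had the highest mean of the 3 Cdx genes per kilobase in both groups, although Cdx2 held 19.5% to 50.5% of their summed level in the Srrm2+/- libraries. Cdx1 was measured at 0.382 ± 0.0920 CPM in WT cells and 0.210 ± 0.0192 CPM in Srrm2+/-. The Cdx1 groups did not overlap, with the higher values in WT, but the difference did not pass the test (log2 fold change -0.86 ± 0.33, adjusted p = 0.0955). Cdx4 had at most 5 counts in any library.

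Elf5 (ENSMUSG00000027186, chr2:103411688-103450989, plus strand), whose first RefSeq promoter window is printed above, encodes an ETS factor that locks in the trophoblast stem cell state. Its estimated counts were 40, 39 and 34 in WT and 40, 45 and 23 in Srrm2+/-. As CPM these were 0.721, 0.675 and 0.635 in WT and 0.578, 0.653 and 0.373 in Srrm2+/-. The groups overlapped, with Srrm2+/- replicate 3 as the lowest library. The log2 fold change was -0.33 ± 0.27 (95% interval -0.94 to 0.27, adjusted p = 0.419). Its paralog Elf3, an epithelial ETS factor, was measured at 6.39 ± 0.641 CPM in WT cells and 6.21 ± 0.680 CPM in Srrm2+/- (log2 fold change -0.04 ± 0.12, adjusted p = 0.845), and Ehf was not called. Per kilobase, Elf5 made up 3.83% ± 0.528 of the level of these 3 genes in WT and 3.18% ± 1.12 in Srrm2+/-.

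Gata3 (ENSMUSG00000015619, chr2:9857078-9890034, minus strand) encodes a zinc finger factor of the trophectoderm that acts in parallel with CDX2. Its estimated counts were 37, 30 and 29 in WT and 55, 44 and 50 in Srrm2+/-. As CPM these were 0.667, 0.519 and 0.541 in WT and 0.795, 0.638 and 0.810 in Srrm2+/-. The lowest Srrm2+/- library lay below the highest WT library. The log2 fold change was 0.38 ± 0.23 (95% interval -0.15 to 0.90, adjusted p = 0.287), so a rise of the size seen for Eomes lies within the interval. The genes Gm13256, 4930412O13Rik and 9230102O04Rik overlap Gata3, hold at most 4 counts in any library, and 3.83% of Gata3 31-base words occur in other genes.

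Gata2 (ENSMUSG00000015053, chr6:88193891-88207032, plus strand) encodes a related factor of trophoblast giant cells and blood progenitors. Its estimated counts were 10, 17 and 9 in WT and 25, 13 and 24 in Srrm2+/-. As CPM these were 0.180, 0.294 and 0.168 in WT and 0.361, 0.189 and 0.389 in Srrm2+/-. Replicate 2 was the highest library of WT and the lowest of Srrm2+/-, and the groups overlapped. The log2 fold change was 0.53 ± 0.42 (95% interval -0.41 to 1.48, adjusted p = 0.406).

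The other GATA genes were low as well. Gata1, the erythroid factor, was measured at 0.279 ± 0.0971 CPM in WT cells and 0.580 ± 0.179 CPM in Srrm2+/- (log2 fold change 1.04 ± 0.38, adjusted p = 0.0767), and it passed the threshold only when Srrm2+/- replicate 2 was left out (0.0493). Gata4, Gata5 and Gata6, factors of endoderm and heart, were not called. Gata4 had the highest mean per kilobase in WT (0.243 CPM per kilobase), and in Srrm2+/- its mean (0.242) was near that of Gata1 (0.238), with no clear order between them. Gata3 made up 23.0% ± 4.09 of the summed level of the 6 GATA genes in WT and 21.3% ± 0.697 in Srrm2+/-, and Gata2 6.15% ± 1.32 and 6.39% ± 1.41.

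Markers of the other lineages that use GATA factors were also measured. For scale, 13.6% of all tested genes were called higher, and 6.95% of those with a mean under 1 CPM. Those of blood and vascular mesoderm summed to 1.44 to 1.89 CPM in WT and 3.91 to 4.36 CPM in Srrm2+/-. Of 7 listed 5 were tested (median log2 fold change 1.35), and 3 were higher, namely Kdr (log2 fold change 3.34 ± 0.35), Runx1 (1.94 ± 0.28) and Etv2 (1.35 ± 0.31), which were named after their values were seen. Tal1 and Lmo2 were not called. Tal1 had lower values in Srrm2+/- (-0.71 ± 0.27, adjusted p = 0.0909, edgeR) and Lmo2 higher ones (0.55 ± 0.29, adjusted p = 0.216, edgeR). The embryonic globins Hba-x and Hbb-bh1 had no count in any library. Primitive endoderm markers summed to 2.63 to 2.99 CPM in WT and 3.08 to 4.15 CPM in Srrm2+/-. Of 7 listed 6 were tested (median 0.39), and only Dab2 was called higher (1.34 ± 0.30, named after its values were seen). Gata6 (0.95 ± 0.55) and Cubn (0.78 ± 0.27) had higher means in Srrm2+/- and were not called. Sox7 (-0.77 ± 0.29), Pdgfra (-0.39 ± 0.40) and Gata4 (-0.00377 ± 0.22) had lower means there and were not called either. The part of such cells in the values of Gata2 and Gata3 was not tested.

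Hand1 (ENSMUSG00000037335, chr11:57828705-57832818, minus strand) encodes a basic helix-loop-helix factor of giant cells and extraembryonic mesoderm. WT libraries held 1, 0 and 6 counts of it, and Srrm2+/- libraries 4, 7 and 11. As CPM these were 0.0180, 0 and 0.112 in WT and 0.0578, 0.102 and 0.178 in Srrm2+/-. The groups overlapped, and a difference was not detectable at this depth (adjusted p = 0.473 when every gene with at least 1 count was tested). Its paralog Hand2, known from heart and limb, had at most 1 count in any library.

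**Figure D3:**
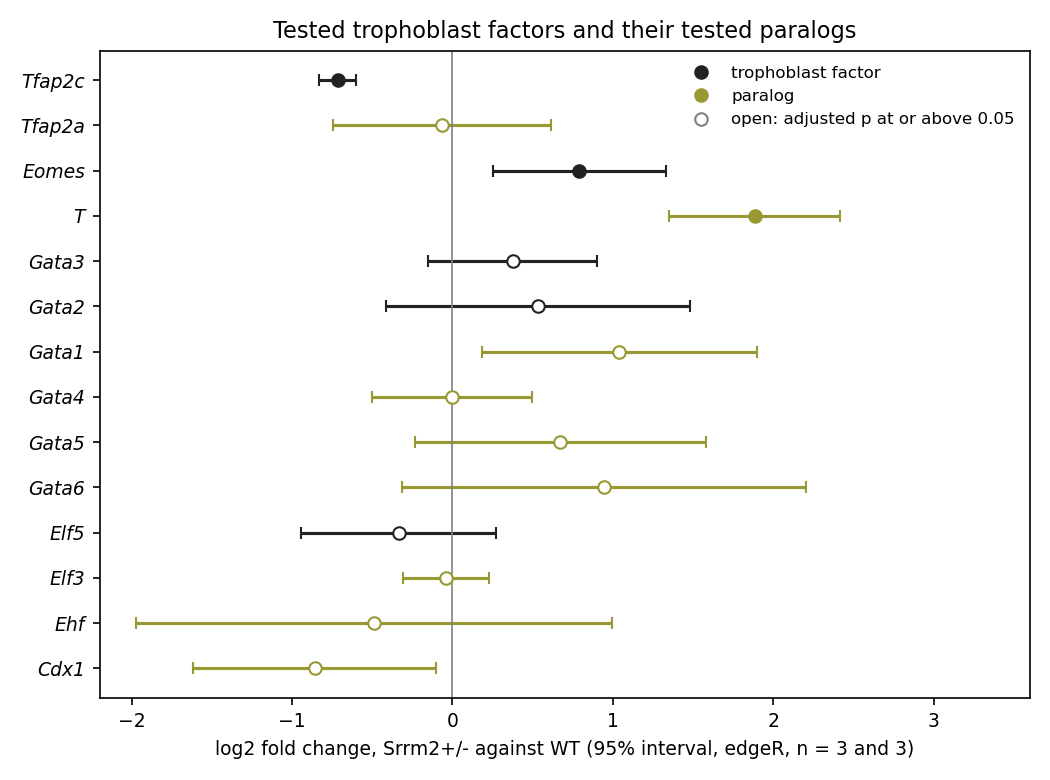
Log2 fold change of Srrm2+/- against WT (x axis) with its 95% interval (edgeR, 3 libraries per group) for each tested trophoblast factor (black) and tested paralog (olive). Filled points have an adjusted p under 0.05. Tfap2c at -0.71, Eomes at 0.79 and T at 1.89 are filled, and the intervals of Elf5, Gata2 and Gata3 all include 0.

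Levels of different genes were compared per kilobase of exon. In WT the order was Tfap2c (13.75 CPM per kilobase), Gata3 (0.145), Eomes (0.137), Elf5 (0.115), Gata2 (0.0397), Hand1 (0.0217) and Cdx2 (0). Libraries of Gata3 overlapped with those of Eomes, those of Eomes with Elf5, those of Gata2 with Hand1, and those of Hand1 with Cdx2, so these neighbours had no clear order. In Srrm2+/- the order was Tfap2c (8.38 CPM per kilobase), Eomes (0.237), Gata3 (0.188), Elf5 (0.0909), Cdx2 (0.0684), Gata2 (0.0580) and Hand1 (0.0563). Eomes, Gata3 and Elf5 were separate from each other there, whereas the lowest members overlapped from Elf5 downward. For scale, the mean level of Pou5f1 was 377 CPM per kilobase in WT and 367 in Srrm2+/-, and that of Esrrb 60.8 and 46.6. All members, Tfap2c included, thus lay below these embryonic stem cell factors in both groups.

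Counts of the 6 members other than Tfap2c summed to 114, 126 and 107 in WT and to 195, 176 and 196 in the more deeply sequenced Srrm2+/- libraries. Tfap2c held 95.8% to 96.2% of all member counts in WT and 90.3% to 92.2% in Srrm2+/-. The mean CPM of 5 of the 7 members was higher in Srrm2+/-, a count that includes 3 whose groups overlapped.

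**Figure D4:**
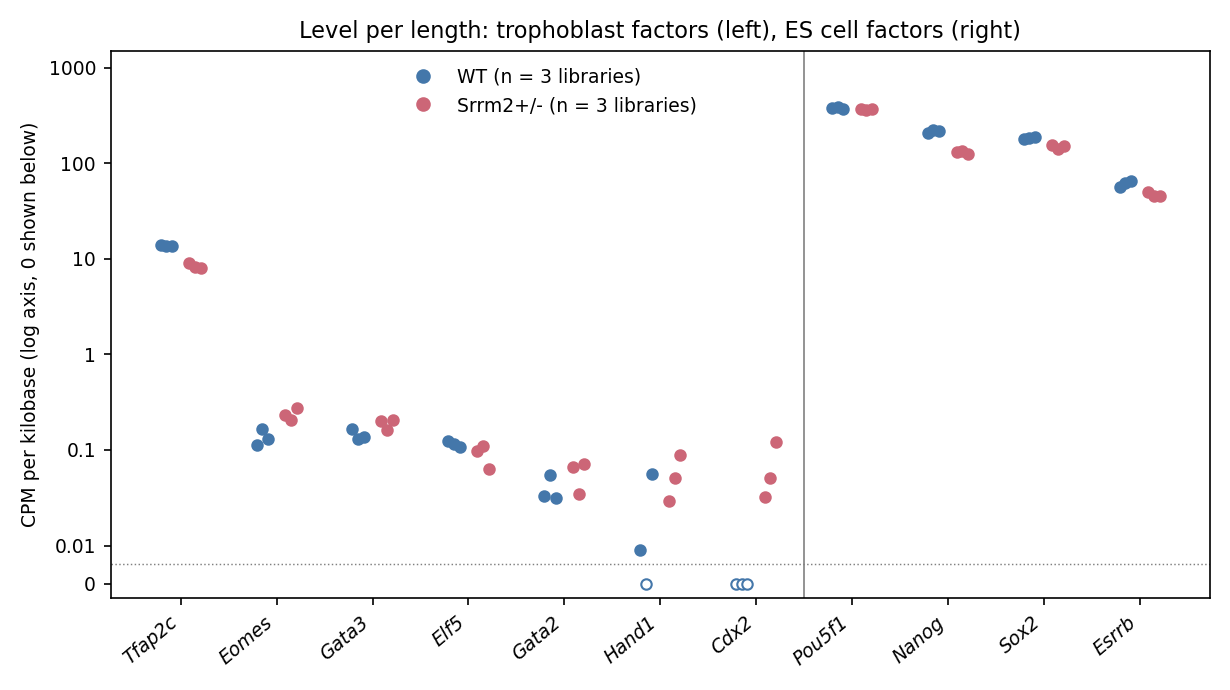
CPM per kilobase of exon (log y axis, with values of 0 drawn as open points below the dotted line) of the trophoblast factors (left) and 4 embryonic stem cell factors (right) in each library of WT (blue) and Srrm2+/- (red). Tfap2c (mean 13.75 in WT and 8.38 in Srrm2+/-) stands above the other factors, which all lie below 1, and under Pou5f1 (377 and 367). The 3 WT libraries of Cdx2 and 1 of Hand1 are at 0.

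Other regulators of the trophoblast were counted from lists. For this and the following lists, 13.6% of all tested genes were called higher and 11.7% lower. Among genes past the filter of 1 CPM in every library of a group, these shares were 18.7% and 15.9%. Of 14 further regulators 11 were tested, of which 4 were higher and 2 lower, with a median log2 fold change of 0.33. Cited2, a coactivator of AP-2 factors that the placenta needs, was higher by 1.31 ± 0.15 (3.79 ± 0.890 CPM in WT and 9.37 ± 0.170 CPM in Srrm2+/-, adjusted p = 0.000342). Ets2, an activator of trophoblast stem cell genes, was higher by 0.88 ± 0.12 (adjusted p = 0.000936), and the trophectoderm regulator Arid3a by 0.48 ± 0.06 (adjusted p = 0.000504). Tead4, the partner of YAP1 upstream of Cdx2 and Gata3, was lower by -0.49 ± 0.07 (23.7 ± 1.40 CPM in WT and 16.8 ± 1.04 CPM in Srrm2+/-, adjusted p = 0.000784), and Sox21 by -0.46 ± 0.09 (adjusted p = 0.00739). The regulators thus moved in both directions, as Tfap2c and Eomes did. Cited1, a relative of Cited2 named after its values were seen, was counted 2, 7 and 3 times in the WT libraries, against 67, 40 and 51 times in Srrm2+/- (log2 fold change 3.43 ± 0.44, adjusted p = 0.000588). Ovol2 (0.47 ± 0.15) lay just above the threshold (adjusted p = 0.0518). Ascl2, Gcm1, Esx1 and Msx2 were not called, and Dlx3, Vgll1 and Nr2f2 were under the filter.

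Regulators that trophoblast stem cells share with embryonic stem cells were all tested (6 genes, median -0.12). Id2 was higher by 1.24 ± 0.14 (2.25 ± 0.336 CPM in WT and 5.32 ± 0.449 CPM in Srrm2+/-, adjusted p = 0.000341), Esrrb was lower by -0.38 ± 0.06 (adjusted p = 0.00154) and Sox2 by -0.30 ± 0.04 (adjusted p = 0.00124). Klf5, Sall4 and Zfp281 were not called. The set therefore holds genes of both directions.

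Among 12 structural and surface genes used by trophoblast, 7 were higher, 5 were not called and the median log2 fold change was 0.58. The largest differences were those of the simple-epithelium keratins Krt19, Krt8 and Krt18 (3.79 to 3.87, adjusted p between 5.77e-08 and 1.57e-07). Wnt7b, a WNT ligand needed in the placenta, was higher by 2.22 ± 0.18 (adjusted p = 4.43e-05), Krt7 by 1.36 ± 0.12 (adjusted p = 6.50e-05), and the cadherin gene Cdh3 by 0.59 ± 0.10 (adjusted p = 0.00336). Plet1, Rhox6, Rhox9, Fabp3 and Lgals3 were not called, of which Plet1 and the Rhox genes are the ones most closely tied to placental cells. Keratins, Cdh3 and Cldn4 are expressed in many epithelia, and Krt7 and Wnt7b are likewise not particular to trophoblast.

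Signals upstream of the factors were all tested (12 genes, 6 higher, 3 lower, median 0.24). Amot, which encodes the angiomotin that holds YAP1 outside the nucleus, was measured at 1.38 ± 0.0440 CPM in WT cells and 7.92 ± 0.609 CPM in Srrm2+/- (log2 fold change 2.52 ± 0.12, adjusted p = 1.92e-06). Lats2, a kinase of the same Hippo pathway, was higher by 1.59 ± 0.16 (adjusted p = 0.000156), and Yap1 by 0.23 ± 0.05 (adjusted p = 0.00926). Nf2, a further Hippo component, was lower by -0.30 ± 0.04 (adjusted p = 0.000537), and Lats1 and Wwtr1 were not called. Fgf4, the signal that trophoblast stem cells need, was lower by -0.44 ± 0.05 (230 ± 5.06 CPM in WT and 170 ± 8.85 CPM in Srrm2+/-, adjusted p = 2.00e-04), and Fgfr1 was higher by 0.65 ± 0.08 (adjusted p = 0.000496). Fgfr2, the FGF4 receptor of trophoblast stem cells, had a log2 fold change of 0.25 ± 0.13 and was not called (adjusted p = 0.222). Bmp4 was higher by 0.30 ± 0.09 (adjusted p = 0.0349), but it lost its call in 5 of 6 fits that left out a library (0.0561 to 0.107), all except that without WT replicate 1. Rbpj, the effector of Notch signalling, was higher by 0.35 ± 0.06, and Nodal was lower by -0.36 ± 0.06 (adjusted p = 0.00239 and 0.00281).

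Repressors that keep trophoblast genes silent in embryonic stem cells were tested as 12 genes, with 3 higher, 2 lower and a median of -0.04. Pou5f1, which represses Cdx2, had a log2 fold change of -0.04 ± 0.04 (847 ± 16.3 CPM in WT and 824 ± 11.7 CPM in Srrm2+/-, adjusted p = 0.485). The de novo DNA methyltransferase genes Dnmt3b and Dnmt3a were higher by 0.95 ± 0.09 (adjusted p = 0.00013) and 0.85 ± 0.06 (adjusted p = 1.95e-05). Dnmt1, which maintains methylation, was not called (-0.08 ± 0.04, adjusted p = 0.184). Suz12 of the Polycomb complex was lower by -0.29 ± 0.05 (adjusted p = 0.00422). The other Polycomb genes of the list, Ezh2 (-0.07 ± 0.04), Rnf2 (-0.03 ± 0.04) and Eed (-0.45 ± 0.46), were not called. Eed had 1534, 2004 and 336 counts in the WT libraries. Mbd3 (0.26 ± 0.07, adjusted p = 0.0178) was higher, but it lost its call without WT replicate 2 (0.0602), Srrm2+/- replicate 1 (0.0610) or replicate 3 (0.0673). Setdb1 (-0.16 ± 0.05, adjusted p = 0.0291) was lower and lost its call in 5 of 6 fits that left out a library (0.0598 to 0.0839), all except that without Srrm2+/- replicate 3. DNA methylation itself was not measured in these libraries.

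**Figure D5:**
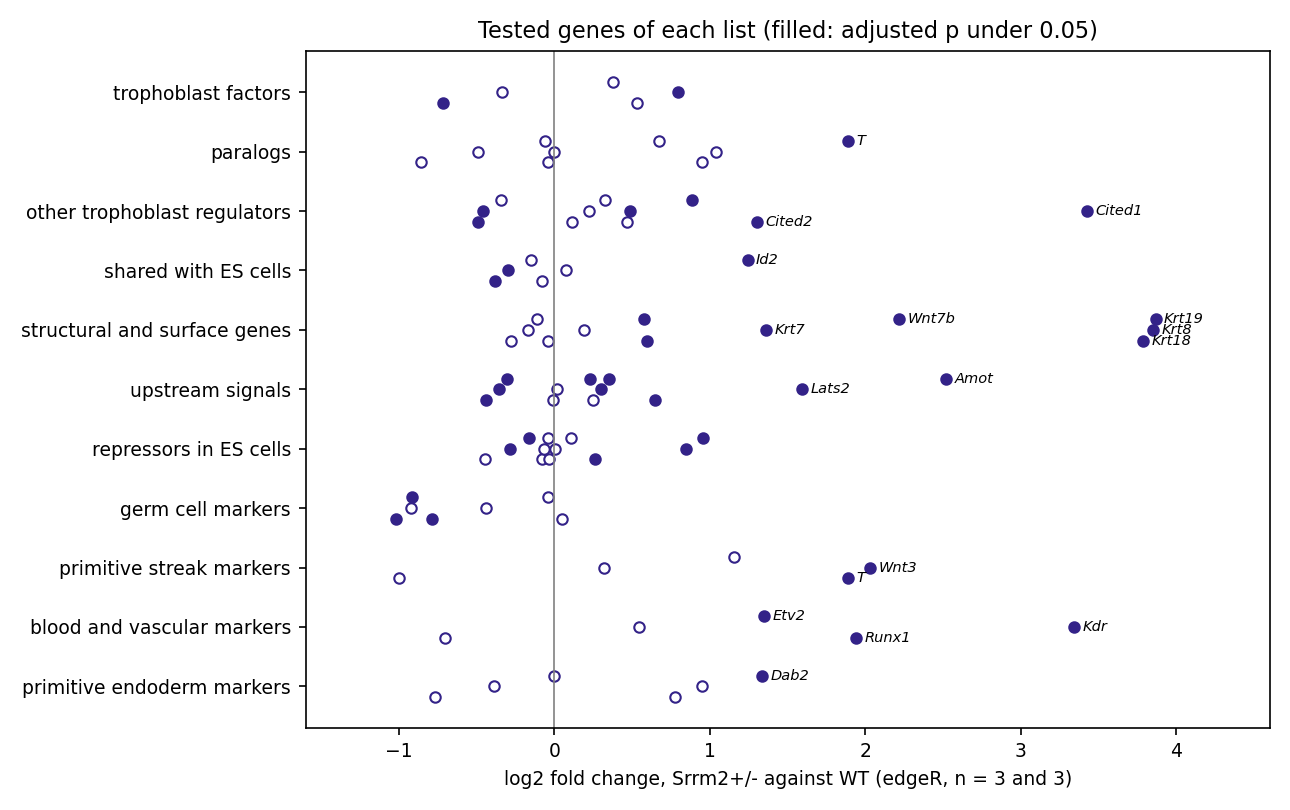
Log2 fold change of Srrm2+/- against WT (x axis, edgeR, 3 libraries per group) of each tested gene, in rows by list. Filled points have an adjusted p under 0.05, and genes past 1.2 on either side are named. Trophoblast factors lie between -0.71 and 0.79, whereas the keratins reach 3.87. A gene of several lists (such as T) is drawn in each.

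Genes of these lists whose pattern was most like that of a member were found by the Pearson correlation of log2 CPM over the 6 libraries, among 90 genes. The libraries fall into 2 genotypes, so that r mostly reflects the difference between them, and it is given as a description. Tfap2c was most like Zfp42 (r = 0.992), Nf2 (0.989) and Prdm1 (0.985), all of which were lower in Srrm2+/-. Eomes was most like Fgfr1 (0.964), Cited1 (0.960) and Wnt3 (0.950), all higher. Gata3 was most like Kdm1a (0.965), Bmp4 (0.950) and Mbd3 (0.930). The leading genes were weaker for Elf5 (Gsc, 0.891) and Gata2 (Gata1, 0.857). Counts of Elf5, Gata2 and Gata3 were all low and overlapped between the genotypes, and the cause of the weaker r was not tested.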

How the data were processed

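Total RNA of 3 WT and 3 Srrm2+/- cultures was sequenced with a stranded kit. Per the submitters' processing notes and the study's methods, the authors quantified reads with Kallisto 0.46.1 on the GENCODE M24 transcriptome (mm10, GRCm38). The values deposited by the authors are estimated counts for each gene without normalisation. The strand setting of the counting and any filter on listed genes are not given in the sources used here, so reads of antisense partners may be shared. Groups and replicate numbers came from the sample titles.

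Estimated counts were rounded to whole numbers and tested with edgeR 4.0.16 in R 4.3.3 (TMM, glmQLFit and glmQLFTest, two-sided, genotype as the sole term). Genes past filterByExpr (minimum count 10, minimum total 15) were tested, which left 18905, and p-values were adjusted over all of them by the Benjamini-Hochberg method (threshold 0.05). The SE was the log2 fold change divided by the square root of F. Names, positions and exon-union lengths came from GENCODE M21 on the same build, where 42156 of 42450 identifiers matched. Of the tested genes, 80 had no match. Log2 CPM used a prior count of 2.

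Alternatives were RLE and upper quartile normalisation, DESeq2 1.42.0, voom of limma 3.58.1, no filter beyond 1 count, a filter of 1 CPM throughout either group, a block for replicate number, fits that each left out a library, and calls limited to absolute log2 differences of 1 or more. The script was tested on simulated counts. Libraries of a group differed beyond sampling noise (the lowest chi-square per degree of freedom was 14.7), so none was counted as a repeat of another.

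The members and lists were chosen with earlier results of these data known. All 7 members are named. List genes are named where called, with a mean of 1 CPM or more and groups that did not overlap, up to 6 per list by size, together with uncalled paralogs or partners, the 3 genes most like each tested member, and lineage markers. Yap1, Nf2 and Bmp4 were added after their values were seen. Spike-ins, splicing and the study's other experiments were not analysed here.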

Additional observations from a re-analysis of the deposited data

How the results depend on the processing

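Of the 7 factors, 2 were called. The count was also 2 with RLE, upper quartile normalisation, voom and without the filter (there Cdx2 and Tfap2c rather than Eomes). It was 1 with DESeq2, with the 1 CPM filter and with the replicate block, 1 to 2 with a library left out, and 0 when calls were limited to absolute log2 differences of 1 or more, which neither called factor reaches. Over all genes 4781 were called, 4166 with the replicate block, 3515 to 4122 with a library left out, and 1153 with that limit. Same-numbered libraries did not deviate together (r from -0.0337 to -0.0285), so the numbers did not pair the samples.

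Tfap2c kept its call in every fit. Elf3 (-0.10 to 0.05 with a library left out) turned to 0.043 without WT replicate 3 and 0.050 without Srrm2+/- replicate 2, and Tfap2a (-0.18 to 0.14) to 0.14 without WT replicate 1 and 0.051 without Srrm2+/- replicate 2, none called. Ovol2 passed with upper quartile normalisation, voom and the 1 CPM filter (0.0327 to 0.0499). Of 48 other genes followed, 41 kept direction and call in every fit. The cause of these shifts was not tested. Below about 0.0519 to 0.0560 CPM in WT, a gene at 0 cannot be told from absence, and most members have too few counts to show a small difference.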
